A study of Mus musculus with 24 samples.

Results

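The step from marrow-derived precursor to day 2 of RANKL was examined in wild-type (WT) mouse cells by RNA-seq. It is held by 6 of the study's 24 libraries, 3 of WT day 2 and 3 of WT day 0, and these were chosen by genotype and day alone. Mice 480, 529 and 531 each gave 1 library at both days, so every difference was taken within a mouse, and values below are listed in that order. The whole study sampled WT and STING-deficient (KO) cells before RANKL and after 2, 3 and 4 days. The WT day 2 cells had 10 ng/mL RANKL and 20 ng/mL mCSF for 2 days after replating at 25000 cells per well. The WT day 0 cells came from the same marrow of female mice aged 10 to 12 weeks, expanded for 72 hours in 40 ng/mL mCSF without RANKL. Wells were plated in triplicate and pooled for RNA. KO mice 481, 528 and 532, treated alike, gave the KO day 2 and KO day 0 libraries used for comparison. No culture without RANKL was sampled at a later day, so RANKL, the lower mCSF, replating and time in culture cannot be told apart in any change below.

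RANKL binds its receptor RANK on precursors of the monocyte lineage, which share mCSF and its receptor with macrophages. The receptor signals through TRAF adaptors, NF-kB and MAP kinases, and with calcium signals from ITAM-bearing receptors this induces NFATc1, the transcription factor that directs osteoclast genes. Osteoclasts are fused multinucleate cells that seal off bone, acidify the space beneath them and digest mineral and matrix.

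Levels are the FPKM deposited by the authors, that is, fragment counts scaled to transcript length and library size. Without the depth of the libraries, no counting error can be stated. Summed FPKM ran from 459180 to 511481 in the WT day 2 libraries and from 619851 to 734974 in the WT day 0 libraries. All 9 osteoclast markers examined were higher at WT day 2 than at WT day 0. The WT day 0 cultures also held transcripts of other marrow cells. The 16 neutrophil markers summed to 141, 172 and 237 FPKM in the WT day 2 libraries, ordered by size, against 6151, 9425 and 16537 FPKM in the WT day 0 libraries. The corresponding sums of 9 B cell markers ran from 0.443 to 0.513 FPKM at WT day 2 and from 28.4 to 103 FPKM at WT day 0. The day 0 library of mouse 480 was the highest for both. In bulk RNA, fewer cells of a type and less RNA per cell cannot be told apart.

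Most genes of the deposited table moved. The table holds 10721 genes that the authors had selected, so every share of genes below is a share of that selected set and not of the transcriptome. Of 9820 genes tested, 3716 (37.8%) were higher and 3788 (38.6%) lower at WT day 2 than at WT day 0, by limma with the mouse as a block and a Benjamini-Hochberg adjusted p under 0.05. The median log2 change over all of them was -0.02. Changes of at least 2-fold passed in 1328 rises (13.5%) and 1627 falls (16.6%). Large changes were more often falls, with 298 rises and 532 falls of at least 2 on the log2(FPKM + 1) scale. The added 1 compresses changes of weakly expressed genes. The 2 groups of libraries did not overlap in 77.2% of the genes tested. With 76.4% of genes called in either direction, a list is read below by its direction, its size of change and its median, and not by whether members passed.

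The same step was measured in other animals. In KO mice, 39.2% of the genes tested were higher and 40.1% lower at KO day 2 than at KO day 0. Of the WT rises, 3483 (93.7%) were also called higher in KO, and of the WT falls 3549 (93.7%) were also called lower. For changes of at least 2-fold in WT the shares were 99.8% of 1328 rises and 99.7% of 1627 falls, and 0 called genes were called in opposite directions. Across genes, which are not independent replicates, the WT and KO changes had a Pearson r of 0.981.

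Genes of bone resorption were among the largest rises. Of 16 effector genes tested, 14 rose, 0 fell and the median log2 change was 2.93. Acp5 (chromosome 9, 22126727 to 22135746, GRCm38), which encodes tartrate-resistant acid phosphatase, measured 3979, 3363 and 3238 FPKM in the WT day 2 libraries, against 18.3, 23.5 and 24.98 FPKM in the WT day 0 libraries. The groups stood far apart, and the log2 change was 7.25 (SE 0.16, adjusted p = 3.76e-06). Ctsk, the protease that digests collagen in the resorption pit, was at 3464, 2602 and 2756 FPKM at WT day 2, against 45.8, 21.98 and 24.5 FPKM at WT day 0, a log2 change of 6.60 (SE 0.15, adjusted p = 3.76e-06). Mouse 480 had the highest Ctsk level at both days. The matrix metalloprotease gene Mmp9 measured 2281, 1902 and 1409 FPKM at WT day 2, against 22.6, 14.6 and 20.2 FPKM at WT day 0, and its libraries did not overlap (log2 change 6.53 (SE 0.17, adjusted p = 4.69e-06)). By these means Acp5 stood at 3526 FPKM and Ctsk at 2941 FPKM at WT day 2, both per length of transcript.

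**Figure D1:**
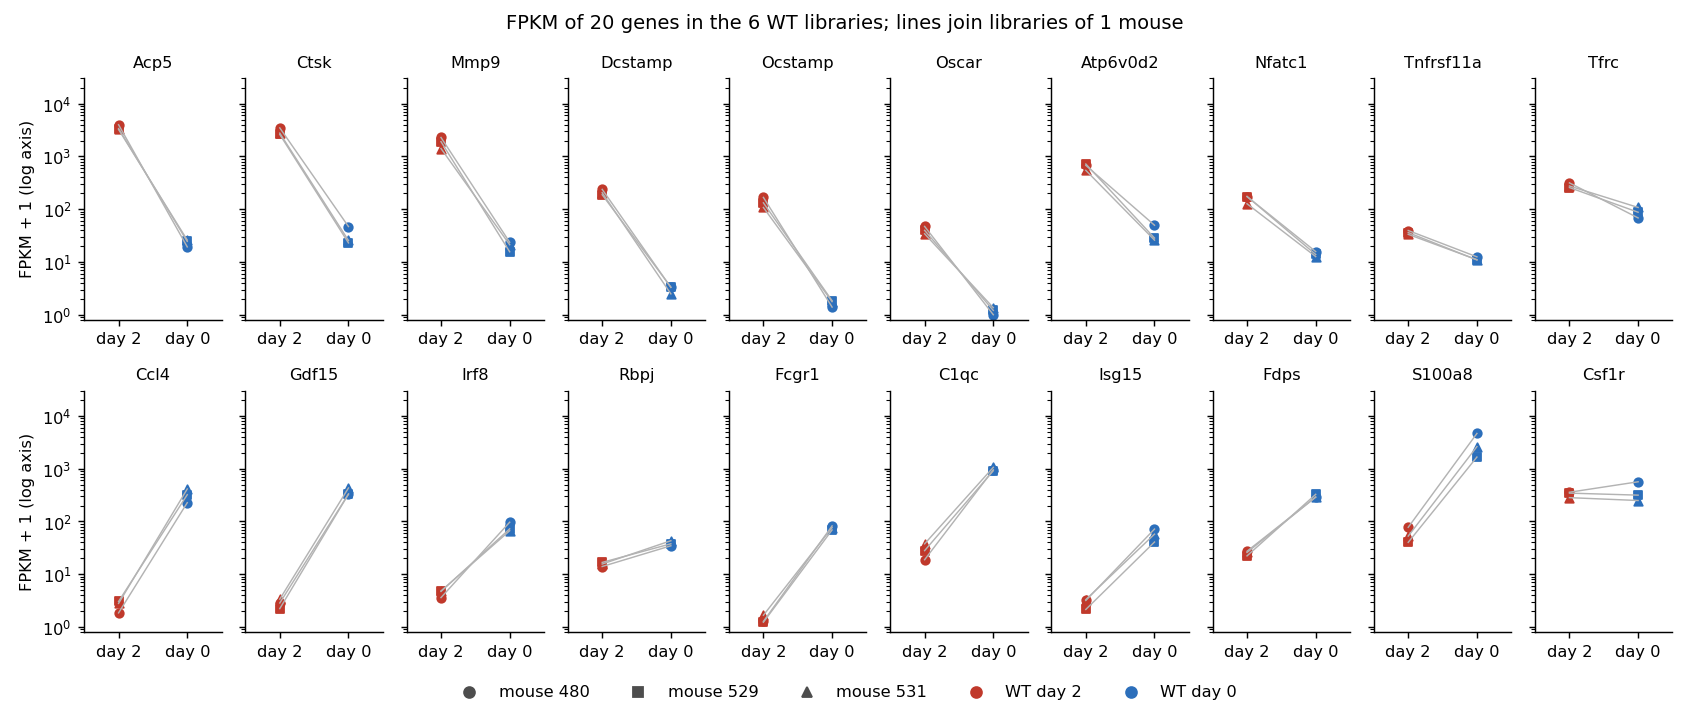
FPKM plus 1 (log axis) of 20 genes in each WT library, with WT day 2 left of WT day 0 and lines joining the libraries of 1 mouse. Acp5, Ctsk and Mmp9 rose by 7.25, 6.60 and 6.53 on the log2 scale, whereas Csf1r overlapped between the days.

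Acid secretion and attachment genes moved with the proteases. Car2, the carbonic anhydrase that supplies protons, measured 112, 93.8 and 105 FPKM at WT day 2, against 0.436, 0.798 and 0.907 FPKM at WT day 0, a log2 change of 5.94 (SE 0.14, adjusted p = 3.76e-06). Nhedc2, the older symbol of the sodium and proton exchanger gene Slc9b2, was at 159, 107 and 103 FPKM at WT day 2, against 1.24, 0.889 and 1.01 FPKM at WT day 0. Its log2 change was 5.90 (SE 0.12, adjusted p = 3.76e-06). Mmp14, a membrane-bound metalloprotease, changed by 5.54 (SE 0.13) and the tyrosine kinase gene Src by 5.52 (SE 0.11). Of the integrin that anchors the osteoclast to bone, Itgav changed by 3.62 (SE 0.13) and Itgb3 by 2.23 (SE 0.12). Itgb3 was at 29.5, 16.01 and 13.7 FPKM at WT day 2, against 4.85, 2.34 and 2.76 FPKM at WT day 0, and its mean was 139.7 FPKM at WT day 3 and 238 FPKM at WT day 4. Calcr, the calcitonin receptor, had barely appeared: it was at 2.85, 1.23 and 0.928 FPKM at WT day 2, against 0.0302, 0 and 0.0688 FPKM at WT day 0, with the means of later days at 36.1 and 101 FPKM. Ostm1 and Plekhm1, needed for osteoclast lysosome traffic, were not called, at log2 changes of -0.21 and -0.09.

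**Figure D2:**
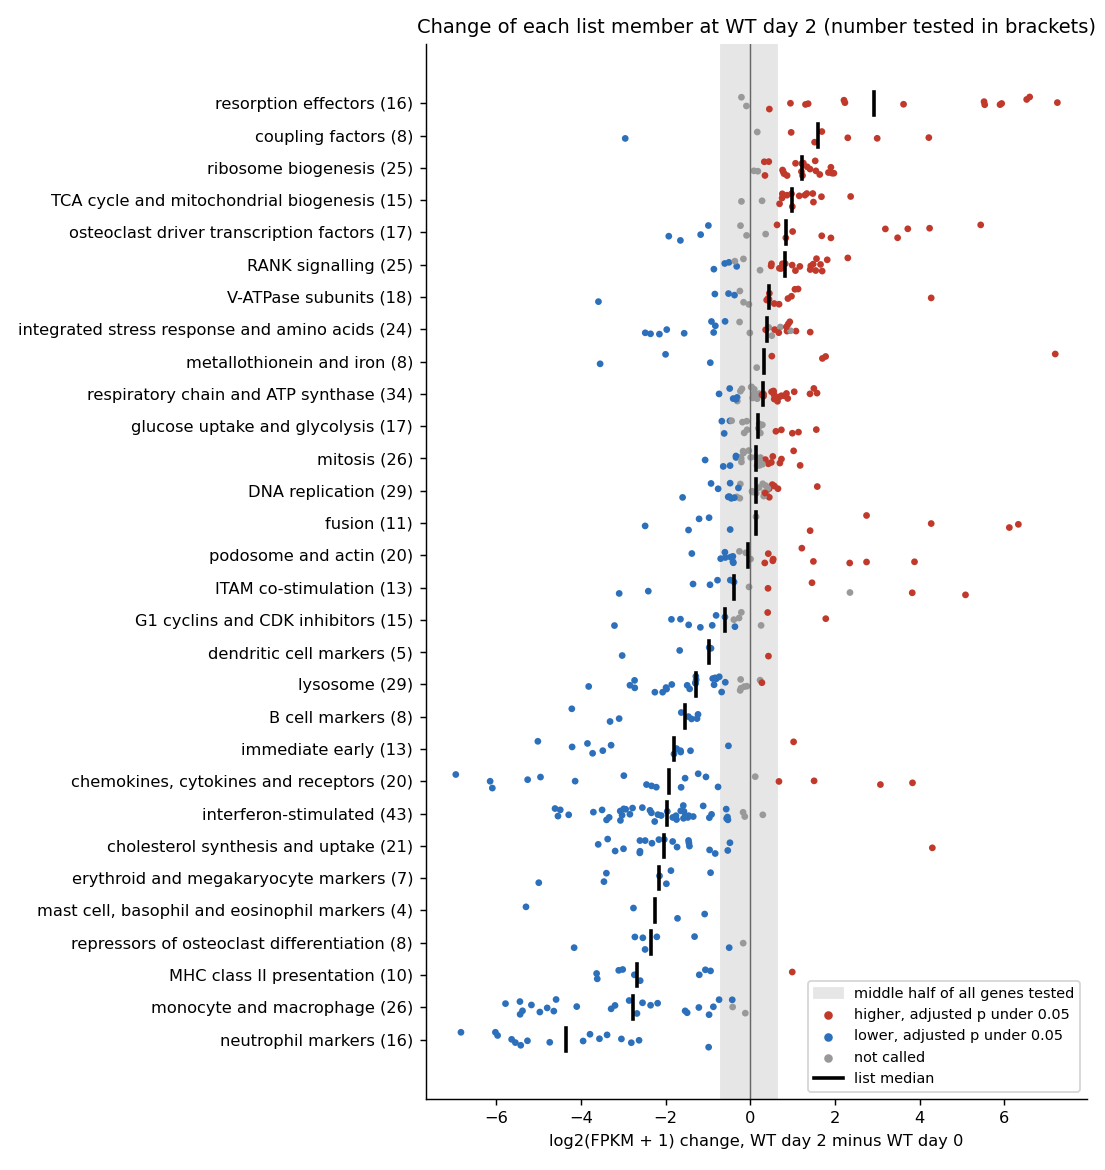
The log2(FPKM + 1) change at WT day 2 against WT day 0 for each tested member of 30 gene lists, coloured by call, with the list median as a black bar and the range of the middle part of all genes in grey. Resorption effectors had a median of 2.93 and neutrophil markers a median of -4.34.

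Genes outside the effector list rose as much. Mt3, a metallothionein, measured 429, 332 and 380.4 FPKM at WT day 2, against 0.7397, 1.77 and 2.56 FPKM at WT day 0, a log2 change of 7.20 (SE 0.23, adjusted p = 6.68e-06). Scin, which severs actin filaments, was at 73.5, 67.4 and 61.8 FPKM at WT day 2, against 0.106, 0.317 and 0.198 FPKM at WT day 0, with a log2 change of 5.83 (SE 0.12, adjusted p = 3.76e-06). Cav1, the coat protein of caveolae, measured 95.4, 80.4 and 89.6 FPKM at WT day 2, against 1.64, 0.527 and 0.542 FPKM at WT day 0 and changed by 5.60 (SE 0.15). The microRNA locus Mir5133 is listed at 0 in the WT day 0 libraries and at 166, 399 and 398 FPKM at WT day 2. FPKM of so short a locus is an uncertain estimate, and no fold is given.

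Most members of the RANK pathway itself rose. Of 25 tested, 18 rose and 4 fell, beside 37.8% and 38.6% of all genes, with a median log2 change of 0.83. Tnfrsf11a, which encodes RANK, measured 38.4, 35.01 and 32.3 FPKM in the WT day 2 libraries, against 11.5, 9.91 and 10.02 FPKM in the WT day 0 libraries. Its libraries did not overlap and its log2 change was 1.66 (SE 0.10, adjusted p = 3.91e-05). Traf6, the adaptor that RANK recruits, changed by 0.73 (SE 0.13). Traf3, which holds back the alternative NF-kB pathway, was at 13.9, 16.04 and 13.1 FPKM at WT day 2, against 4.69, 4.58 and 4.16 FPKM at WT day 0 (log2 change 1.49 (SE 0.11, adjusted p = 7.64e-05)). Birc3, a ubiquitin ligase of that pathway, was at 44.8, 45.9 and 45.5 FPKM at WT day 2, against 11.6, 8.22 and 6.14 FPKM at WT day 0, and its log2 change was 2.30 (SE 0.17, adjusted p = 8.42e-05).

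The NF-kB subunits and their inhibitors moved unequally. Nfkb2 changed by 1.82 (SE 0.18), Rel by 1.56 (SE 0.17), Nfkb1 by 0.99 (SE 0.10) and Relb by 0.83 (SE 0.18), whereas Rela changed by -0.50 (SE 0.13). The inhibitor genes Nfkbia, Nfkbie and Tnfaip3 changed by 1.41 (SE 0.12), 1.70 (SE 0.19) and 1.43 (SE 0.14). Ikbkg, the regulatory subunit of the kinase that frees NF-kB, changed by 1.55 (SE 0.10), and Ikbkb, a catalytic subunit, by -0.32 (SE 0.12). Grb2, an adaptor of growth factor receptors, had the largest fall of the list at -0.86 (SE 0.11).

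The kappa B motif, GGGA and TTTCC around any 1 base, was searched on both strands in promoters of 250 bases before to 50 after the start. Promoter sequences are those of RefSeq on build GRCm38.p6. A gene with several starts had several such windows and was counted for any motif when any window held it. The shares can therefore depend on the number of starts. The kappa B motif stood in 4 of 20 RANK pathway genes (20.0%) and in 0.578% of 7789 protein-coding genes tested. Among genes that changed by at least 2 on the log2 scale it stood in 1.34% of those that rose and in 1.80% of those that fell. The promoter of Nfkbia (chr12:55492598-55492897, minus strand) is shown for its match, in capitals, which begins 29 bases before the start.

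Nfkbia: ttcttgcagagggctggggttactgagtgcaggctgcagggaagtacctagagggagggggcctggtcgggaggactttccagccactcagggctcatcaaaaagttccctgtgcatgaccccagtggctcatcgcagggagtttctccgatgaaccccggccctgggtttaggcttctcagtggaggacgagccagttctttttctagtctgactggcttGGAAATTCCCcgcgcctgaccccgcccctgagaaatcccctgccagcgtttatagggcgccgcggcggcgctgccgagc

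A match describes these letters and shows no bound factor. In all 7 motifs were searched, and those of AP-1 (TGANTCA), NFAT (TGGAAA) and the E-box (CACGTG) differed little between rising and falling genes. The AP-1 motif stood in 12.5% of 224 genes that rose by at least 2 on the log2 scale, in 12.1% of 388 that fell as much and in 6.44% of all tested. The NFAT core stood in 56 of the 224, in 95 of the 388 and in 19.3% of all, and the E-box in 28, in 36 and in 12.2%.

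Transcription factors that drive osteoclast formation rose as a majority, with 10 of 17 higher, 4 lower and a median of 0.84. Nfatc1 measured 172, 173 and 125 FPKM in the WT day 2 libraries, against 14.7, 12.8 and 11.6 FPKM in the WT day 0 libraries, a log2 change of 3.48 (SE 0.11, adjusted p = 6.29e-06). It stood higher at WT day 2 than on average at WT day 4 (107 FPKM). Prdm1, which encodes the repressor Blimp1, was at 32.9, 29.9 and 22.6 FPKM at WT day 2, against 2.15, 0.913 and 0.792 FPKM at WT day 0 and changed by 3.72 (SE 0.14, adjusted p = 8.83e-06). Fosl2, an AP-1 subunit, was at 119.5, 113 and 93.9 FPKM at WT day 2, against 4.98, 4.66 and 4.79 FPKM at WT day 0 (log2 change 4.23 (SE 0.11, adjusted p = 4.5e-06)). Jdp2, another AP-1 partner, changed by 5.44 (SE 0.23), whereas Fos overlapped between the days, at 182, 159.8 and 161 FPKM at WT day 2, against 247, 185 and 166 FPKM at WT day 0 (log2 change -0.23, adjusted p = 0.106). Ppargc1b, a coactivator of mitochondrial genes, changed by 3.19 (SE 0.12). Pparg, Tfeb, Jund and Tfe3 fell, by 1.92, 1.65, 1.17 and 0.99 on the log2 scale.

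The factors that restrain the lineage fell. Of 8 repressors tested, 7 fell, 0 rose and the median was -2.34. Irf8, a factor of monocyte fate that blocks Nfatc1, measured 2.61, 3.73 and 3.82 FPKM in the WT day 2 libraries, against 95.9, 71.5 and 65.8 FPKM in the WT day 0 libraries, a log2 change of -4.16 (SE 0.19, adjusted p = 1.76e-05). Id2, an inhibitor of basic helix-loop-helix factors, changed by -2.72 (SE 0.10), Id1 by -2.48 (SE 0.29) and Id3 by -2.21 (SE 0.21). Rbpj, the nuclear effector of Notch, was at 13.03, 15.8 and 14.6 FPKM at WT day 2, against 33.7, 36.8 and 42.2 FPKM at WT day 0. Of the 8, Irf1 alone did not pass, at a log2 change of -0.17.

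ITAM receptors and adaptors, which supply the calcium signal, split by member. Oscar, an osteoclast receptor for collagen, was at 46.1, 38.7 and 33.2 FPKM at WT day 2, against 0, 0.209 and 0.362 FPKM at WT day 0, a log2 change of 5.08 (SE 0.18, adjusted p = 7.92e-06). Siglec15, a sialic acid receptor of osteoclasts, changed by 3.82 (SE 0.17). Fcer1g, the adaptor of Oscar, was lower, at 609, 716 and 695 FPKM at WT day 2, against 4382, 2772 and 3741 FPKM at WT day 0 (log2 change -2.41 (SE 0.18, adjusted p = 8.47e-05)). Trem2, a receptor of macrophages and osteoclasts, was at 120.2, 135 and 165 FPKM at WT day 2, against 1399, 996 and 1223 FPKM at WT day 0 (log2 change -3.09 (SE 0.16, adjusted p = 2.25e-05)), and Tyrobp, its adaptor DAP12, changed by -1.35 (SE 0.15). In all 4 of 13 rose and 7 fell. Syk, the kinase that reads ITAMs, was listed at 53.4, 43.7 and 0 FPKM at WT day 0 and was not called, and a 0 beside such values can be a failed estimate.

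Genes of cell fusion moved in both directions, with 5 of 11 higher, 5 lower and a median of 0.14. Dcstamp, required for fusion of precursors, measured 236, 187 and 204 FPKM in the WT day 2 libraries, against 2.29, 2.33 and 1.48 FPKM in the WT day 0 libraries. Its log2 change was 6.12 (SE 0.13, adjusted p = 3.76e-06). Ocstamp, its relative, was at 166, 131 and 107 FPKM at WT day 2, against 0.395, 0.842 and 0.7700 FPKM at WT day 0, a log2 change of 6.33 (SE 0.19, adjusted p = 6.29e-06). Atp6v0d2, a proton pump subunit also required for fusion, was at 674, 716 and 543 FPKM at WT day 2, against 48.6, 27.3 and 24.9 FPKM at WT day 0 (log2 change 4.27 (SE 0.18, adjusted p = 1.2e-05)). The tetraspanin gene Cd81 was lower, at 14.9, 27.7 and 32.2 FPKM at WT day 2, against 104, 155 and 159 FPKM at WT day 0, and Sirpa and Cd47, a receptor and its ligand, changed by -1.46 (SE 0.13) and -0.97 (SE 0.12). Podosome genes showed 9 rises and 8 falls among 20: the invadopodium scaffold genes Cttn and Sh3pxd2a changed by 3.88 (SE 0.12) and 2.75 (SE 0.17), and the small GTPase genes Rac1, Cdc42 and Rhoa by -0.60, -0.41 and -0.47.

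The proton pump and the lysosome parted. Of 18 subunits of the vacuolar ATPase, 11 rose and 4 fell, with a median of 0.43. Beside Atp6v0d2, the largest change was in Atp6v0a1, a subunit with relatives in other tissues, which was at 9.43, 10.2 and 9.76 FPKM at WT day 2, against 147, 118 and 122 FPKM at WT day 0, a log2 change of -3.58 (SE 0.12, adjusted p = 6.72e-06), and Atp6v0d1, the counterpart of Atp6v0d2, changed by -0.84 (SE 0.10). Tcirg1, the a3 subunit of the osteoclast pump, changed by 0.45 (SE 0.13), and Atp6v1a, a catalytic subunit, by 0.97 (SE 0.10).

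Lysosomal hydrolases and membrane proteins fell together at this step. Of 29 tested, 22 fell, 1 rose and the median was -1.28. Ctsd, a cathepsin protease of lysosomes in general, was at 1180.3, 1447 and 1560.5 FPKM at WT day 2, against 10066, 8814 and 8809.6 FPKM at WT day 0, a log2 change of -2.73 (SE 0.15, adjusted p = 2.75e-05). Ctsb, another cathepsin, was at 625, 704 and 705 FPKM at WT day 2, against 5132, 4013 and 4386 FPKM at WT day 0, a log2 change of -2.73 (SE 0.13, adjusted p = 2.09e-05). The libraries of both genes did not overlap between the days. Lgmn, the protease legumain, measured 81.3, 86.2 and 97.2 FPKM at WT day 2, against 1328, 1209 and 1221 FPKM at WT day 0 (log2 change -3.81 (SE 0.11, adjusted p = 5.94e-06)). Lamp1, a major membrane protein of lysosomes, changed by -2.25 (SE 0.13). Summed FPKM of the list ran from 9144 to 10179.8 at WT day 2 and from 32298 to 42721 at WT day 0. The list's median sum was 11962 FPKM at WT day 3 and 17561 FPKM at WT day 4. Macrophage and neutrophil transcripts, below, fell over the same step, and their part in this result was not tested.

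Secreted factors split by role. Among factors by which osteoclasts act on bone-forming cells, 6 of 8 rose. Pdgfb, the growth factor PDGF-BB, was at 101, 91.8 and 87.2 FPKM at WT day 2, against 3.05, 4.85 and 4.500 FPKM at WT day 0 (log2 change 4.22 (SE 0.16, adjusted p = 8.83e-06)), and Lif, a cytokine of the interleukin 6 family, at 9.13, 7.56 and 6.47 FPKM at WT day 2, against 0.0687, 0.0821 and 0.1001 FPKM at WT day 0 (log2 change 3.00 (SE 0.14, adjusted p = 1.58e-05)). Spp1, which encodes osteopontin, changed by -2.95 (SE 0.28). Chemokines and cytokines mostly fell, with 15 of 20 lower and 4 higher. Ccl4, which attracts monocytes, was at 0.855, 2.06 and 1.81 FPKM at WT day 2, against 226, 321 and 412 FPKM at WT day 0, a log2 change of -6.95 (SE 0.12, adjusted p = 3.67e-06). Ccl2 was at 6.604, 15.1 and 16.6 FPKM at WT day 2, against 156, 569.8 and 716 FPKM at WT day 0. The receptor gene Ccr1 changed by 3.83 (SE 0.20) and Ccr3 by 3.07 (SE 0.32). Gdf15, a stress-induced cytokine of the TGF-beta family, had the largest fall of all genes tested, at 1.86, 1.24 and 2.38 FPKM at WT day 2, against 330.2, 328 and 431 FPKM at WT day 0 (log2 change -7.02 (SE 0.11, adjusted p = 3.41e-06)).

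The macrophage programme fell in the same mice. Of 26 monocyte and macrophage markers tested, 24 fell, 0 rose and the median was -2.77. Fcgr1, the high-affinity IgG receptor, measured 0.278, 0.236 and 0.675 FPKM in the WT day 2 libraries, against 81.5, 68.1 and 75.8 FPKM in the WT day 0 libraries. Its log2 change was -5.78 (SE 0.13, adjusted p = 3.76e-06). C1qc, a chain of complement C1q, was at 17.9, 27.04 and 36.7 FPKM at WT day 2, against 951, 914 and 1061 FPKM at WT day 0 (log2 change -5.17 (SE 0.17, adjusted p = 6.89e-06)). Ccr2, the monocyte chemokine receptor, was at 0.288, 0.343 and 0.619 FPKM at WT day 2, against 40.9, 28.00 and 34.6 FPKM at WT day 0 (log2 change -4.64 (SE 0.15, adjusted p = 6.57e-06)). Apoe and Mrc1, the mannose receptor, changed by -5.44 (SE 0.25) and -5.38 (SE 0.18). Csf1r, the mCSF receptor of both lineages, overlapped between the days, at 357, 344 and 282 FPKM at WT day 2, against 564, 315 and 249 FPKM at WT day 0 (log2 change -0.12, adjusted p = 0.57). Without mouse 480 its log2 change was 0.15.

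Genes of the MHC class II presentation list were mostly lower too, with 9 of 10 lower and a median of -2.67. H2-Aa, a class II chain, was at 7.07, 5.07 and 4.33 FPKM at WT day 2, against 167, 45.5 and 61.9 FPKM at WT day 0, and mouse 480 was the highest at both days. The log2 change of H2-Aa was -3.63 (SE 0.26, adjusted p = 7.43e-05). B cells carry class II as well, and the B cell marker Cd79b, also highest in mouse 480 at day 0, was at 0.274, 0.415 and 0.301 FPKM at WT day 2, against 43.4, 15.3 and 19.7 FPKM at WT day 0. The part of B cell transcripts in this fall was not tested. Cd40, a costimulatory receptor, was at 0.812, 1.12 and 1.24 FPKM at WT day 2, against 14.7, 16.9 and 18.5 FPKM at WT day 0, and Cd80 was the 1 member that rose (log2 change 0.99 (SE 0.11)).

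Markers of other marrow cells fell too. All 16 tested neutrophil markers were lower. S100a8, a calcium-binding protein of neutrophils and monocytes, measured 76.7, 39.3 and 51.96 FPKM at WT day 2, against 4655, 1662 and 2621 FPKM at WT day 0, a log2 change of -5.63 (SE 0.13, adjusted p = 3.76e-06). The antimicrobial peptide gene Camp was at 5.33, 2.94 and 3.79 FPKM at WT day 2, against 842, 348 and 598 FPKM at WT day 0 and changed by -6.83 (SE 0.14). All 8 tested B cell markers were lower, with Vpreb3 listed at 0 in the WT day 2 libraries against 15.6, 3.497 and 7.35 FPKM at WT day 0. All 7 tested erythroid and megakaryocyte markers and all 4 tested of mast cells, basophils and eosinophils, led by Prg2 (-5.29 (SE 0.20)), were lower. Pf4, a platelet chemokine, changed by -4.99 (SE 0.27) and was at 438, 1130.2 and 1566 FPKM at WT day 0, lowest in mouse 480. The 4 other megakaryocyte markers tested were highest in mouse 480, with Ppbp at 21.3, 14.6 and 13.9 FPKM at WT day 0. Of 5 dendritic cell markers 4 fell and Ccl22 rose (0.43 (SE 0.16)), and Cd4 alone of the T and NK cell list was tested and fell. Dcn was the 1 of 2 tested stromal markers that rose, at 1.29, 2.89 and 2.33 FPKM at WT day 2, against 0.217, 0.05304 and 0.113 FPKM at WT day 0.

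Interferon-stimulated genes fell almost without exception. Of 43 tested, 40 fell, 0 rose and the median was -1.96. Isg15, a ubiquitin-like modifier, measured 2.19, 1.15 and 2.31 FPKM in the WT day 2 libraries, against 70.9, 39.8 and 56.5 FPKM in the WT day 0 libraries. Its libraries did not overlap and its log2 change was -4.29 (SE 0.12, adjusted p = 5.03e-06). Zbp1, a sensor of nucleic acids, was at 0.405, 0.06496 and 0.406 FPKM at WT day 2, against 39.9, 19.9 and 26.8 FPKM at WT day 0 (log2 change -4.49 (SE 0.15, adjusted p = 6.89e-06)). Irf7, the factor that amplifies interferon, changed by -4.54 (SE 0.25) and Oasl2 by -4.61 (SE 0.24). Tmem173, the older symbol of Sting1, was itself at 5.28, 6.15 and 7.35 FPKM at WT day 2, against 28.7, 25.4 and 21.3 FPKM at WT day 0, a log2 change of -1.85 (SE 0.17, adjusted p = 0.000176). Over the course the mean log2(FPKM + 1) of the 43 genes ran from 3.98 to 4.46 in the WT day 0 libraries, from 1.94 to 2.16 at WT day 2, from 1.92 to 2.22 at WT day 3 and from 2.23 to 2.89 at WT day 4.

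The interferon-stimulated response element, 2 copies of GAAA around any 2 bases, was searched on both strands in the same promoter windows. It stood in 17 of 33 genes of the list that had a promoter (51.5%), in 3.95% of 7789 genes tested, in 11.3% of genes that fell by at least 2 on the log2 scale and in 2.23% of genes that rose as much. Isg15 (chr4:156200769-156201068, minus strand) and Rsad2 (chr12:26456403-26456702, minus strand), whose product viperin is antiviral, are shown with the matches in capitals. Those of Isg15 are 3 overlapping matches from 78 bases before its start, and that of Rsad2 begins 120 bases before its start on the other strand.

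Isg15: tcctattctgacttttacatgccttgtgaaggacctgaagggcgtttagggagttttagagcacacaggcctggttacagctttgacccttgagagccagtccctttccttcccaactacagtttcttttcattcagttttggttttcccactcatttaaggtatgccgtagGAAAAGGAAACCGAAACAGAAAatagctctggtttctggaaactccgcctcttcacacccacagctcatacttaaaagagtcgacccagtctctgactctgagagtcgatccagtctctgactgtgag
Rsad2: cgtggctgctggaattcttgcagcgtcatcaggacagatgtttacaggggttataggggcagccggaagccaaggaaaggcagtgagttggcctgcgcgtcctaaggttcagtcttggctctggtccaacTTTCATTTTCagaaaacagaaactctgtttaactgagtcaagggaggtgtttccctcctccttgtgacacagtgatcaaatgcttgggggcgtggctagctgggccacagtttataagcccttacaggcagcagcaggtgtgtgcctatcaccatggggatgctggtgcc

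The fall of these genes was compared with that in STING-deficient mice, whose mean log2(FPKM + 1) over the list before RANKL was lower, at 3.98 to 4.46 in the WT day 0 libraries and 2.92 to 3.41 in the KO day 0 libraries. All 43 members changed more negatively in WT than in KO, by a median of -0.67, where 4952 of 9820 genes tested did so. Such a lean to 1 side was not particular to this list. All 16 resorption effectors (median -0.25) and 31 of 34 respiratory chain genes (median -0.16) were more negative in WT. Ribosome biogenesis leaned the other way, with 1 of 25 more negative (median 0.13). Isg15 changed by -4.29 in WT and by -2.72 in KO, and Rsad2 changed by -3.39 in WT and by -1.52 in KO. Isg15 averaged 55.7 ± 15.6 FPKM at WT day 0, against 14.4 ± 6.04 FPKM at KO day 0, and 1.88 ± 0.633 FPKM at WT day 2, against 1.24 ± 0.0921 FPKM at KO day 2 (SD, n = 3). No gene passed the test of the difference between the genotypes over 9890 genes tested by limma (0 called). In that test 444 had an unadjusted p under 0.05, where 5 percent of the genes tested is 494.5. Of the 43 list members, which are not independent of each other, 29 had an unadjusted p under 0.05. The smallest adjusted p was 0.112, held by Rsad2 at a difference of -1.87 (SE 0.22) and by the gene model Gm8615. Without the mouse block 4 genes passed, Gm8615, Ifit3, Rsad2 and Tmem173. The 95% interval of a difference had a median half-width of 0.36 on the log2 scale. Tmem173 was the gene altered in KO mice, and both it and the interferon list were chosen with this contrast known.

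**Figure D3:**
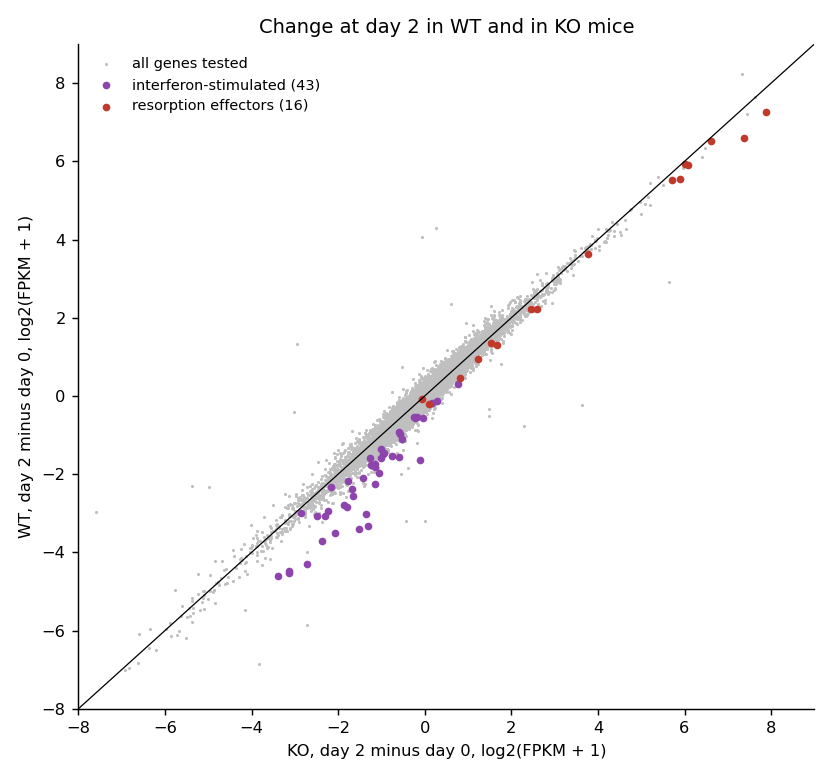
The log2(FPKM + 1) change from day 0 to day 2 in WT (vertical) against KO (horizontal), 1 point per gene, with equal change on the line. Interferon-stimulated genes lie below the line in all 43 cases, with a median difference of -0.67.

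Cholesterol synthesis fell as a block. Of 21 genes tested, 20 fell, with a median of -2.03. Fdps, which makes the isoprenoid farnesyl diphosphate, measured 26.3, 21.3 and 24.9 FPKM in the WT day 2 libraries, against 289, 326 and 289 FPKM in the WT day 0 libraries. Its libraries did not overlap, and the log2 change was -3.59 (SE 0.12, adjusted p = 7.48e-06). Cyp51, a sterol demethylase, was at 10.04, 8.79 and 9.72 FPKM at WT day 2, against 93.2, 112 and 118 FPKM at WT day 0 (log2 change -3.37 (SE 0.12, adjusted p = 8.26e-06)), and Dhcr7, of the last steps, at 6.102, 6.79 and 7.37 FPKM at WT day 2, against 40.5, 47.6 and 50.6 FPKM at WT day 0 (log2 change -2.60 (SE 0.10, adjusted p = 8.81e-06)). Insig1, a sterol sensor, changed by -2.99 (SE 0.21), and Srebf2, the regulator of the pathway, by -0.48 (SE 0.12). In KO the median change of the list was -1.84.

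The CCAAT box, CCAAT searched on both strands, stood in 15 of 16 genes of the list with a promoter (93.8%) and in 43.2% of genes tested. It stood in 40.6% of genes that rose by at least 2 on the log2 scale and in 44.3% of those that fell as much. A high share was not particular to this list, as 18 of 22 mitosis genes (81.8%) held it too. The sterol regulatory element, searched only as ATCAC and CCAC around any 1 base, stood in 0 of 16 within these windows. This strict form stood in 0.18% of the 7789 genes tested, so a list of 16 cannot show whether such elements are absent. Cyp51 (chr5:4104648-4104947, minus strand) and Insig1 (chr5:28071162-28071461, plus strand) are shown, with the CCAAT match in capitals, 29 bases before the start of Cyp51 and 216 before that of Insig1 on the other strand.

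Cyp51: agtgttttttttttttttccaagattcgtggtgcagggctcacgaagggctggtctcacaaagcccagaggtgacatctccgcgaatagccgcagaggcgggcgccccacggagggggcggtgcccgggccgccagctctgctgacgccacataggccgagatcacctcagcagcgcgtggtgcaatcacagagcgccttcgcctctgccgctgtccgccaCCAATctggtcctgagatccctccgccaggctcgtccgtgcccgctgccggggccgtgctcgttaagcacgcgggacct
Insig1: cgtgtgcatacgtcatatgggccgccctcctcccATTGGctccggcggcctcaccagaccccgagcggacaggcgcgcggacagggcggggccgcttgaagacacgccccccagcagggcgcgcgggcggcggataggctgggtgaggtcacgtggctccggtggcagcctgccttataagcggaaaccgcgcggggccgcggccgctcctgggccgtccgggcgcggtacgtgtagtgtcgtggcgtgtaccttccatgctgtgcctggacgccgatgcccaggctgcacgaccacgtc

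Mitochondrial and growth genes rose. Of 15 genes of the TCA cycle and mitochondrial biogenesis, 13 rose, 0 fell and the median was 0.99. Idh3a, a subunit of isocitrate dehydrogenase, measured 179.7, 160.2 and 175 FPKM in the WT day 2 libraries, against 19.9, 40.6 and 41.7 FPKM in the WT day 0 libraries, a log2 change of 2.37 (SE 0.23, adjusted p = 0.000237). Mdh2, malate dehydrogenase, changed by 1.48 (SE 0.10). Of 34 respiratory chain genes, 18 rose and 5 fell, with a median of 0.29. Cycs, cytochrome c, was at 28.4, 29.4 and 31.5 FPKM at WT day 2, against 7.53, 9.97 and 10.7 FPKM at WT day 0, and Ndufs8, a complex I subunit, changed by -0.74 (SE 0.10). Glycolysis was mixed, with 5 of 17 higher and 3 lower. Of these, Eno1 changed by 1.56 (SE 0.16) and Slc16a3, which exports lactate, by -0.67 (SE 0.10).

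Ribosome biogenesis rose in nearly every member, 23 of 25, with 0 falls and a median of 1.23. Polr1b, of the polymerase that makes ribosomal RNA, was at 15.8, 15.6 and 15.4 FPKM at WT day 2, against 3.25, 3.96 and 3.14 FPKM at WT day 0 (log2 change 1.90 (SE 0.11, adjusted p = 3.7e-05)). Nolc1 and Mybbp1a, nucleolar proteins, changed by 1.85 (SE 0.10) and 1.93 (SE 0.09). Myc, known to drive ribosome biogenesis, measured 69.2, 79.99 and 72.2 FPKM at WT day 2, against 18.6, 26.6 and 22.01 FPKM at WT day 0, with a log2 change of 1.69 (SE 0.10, adjusted p = 4.63e-05). The median sum of the list was 2320.3 FPKM at WT day 2, against 1266 FPKM at WT day 0, and it was 1485 FPKM at WT day 3 and 1133 FPKM at WT day 4. Stress genes split: Ddit3 and Atf5, factors of the integrated stress response, changed by -2.14 (SE 0.10) and -2.48 (SE 0.13), and Aldh18a1, of proline synthesis, by 1.42 (SE 0.19). Tfrc, which takes up iron, was at 314, 256 and 274 FPKM at WT day 2, against 67.3, 86.5 and 107 FPKM at WT day 0, and Slc40a1, which exports it, at 5.58, 6.26 and 6.98 FPKM at WT day 2, against 41.4, 121 and 116 FPKM at WT day 0. Immediate early genes, which answer stimuli within hours, fell in 12 of 13 cases, with Atf3 at 5.61, 4.76 and 6.32 FPKM at WT day 2, against 243, 208 and 183 FPKM at WT day 0 (log2 change -5.01 (SE 0.14, adjusted p = 5.1e-06)).

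**Figure D4:**
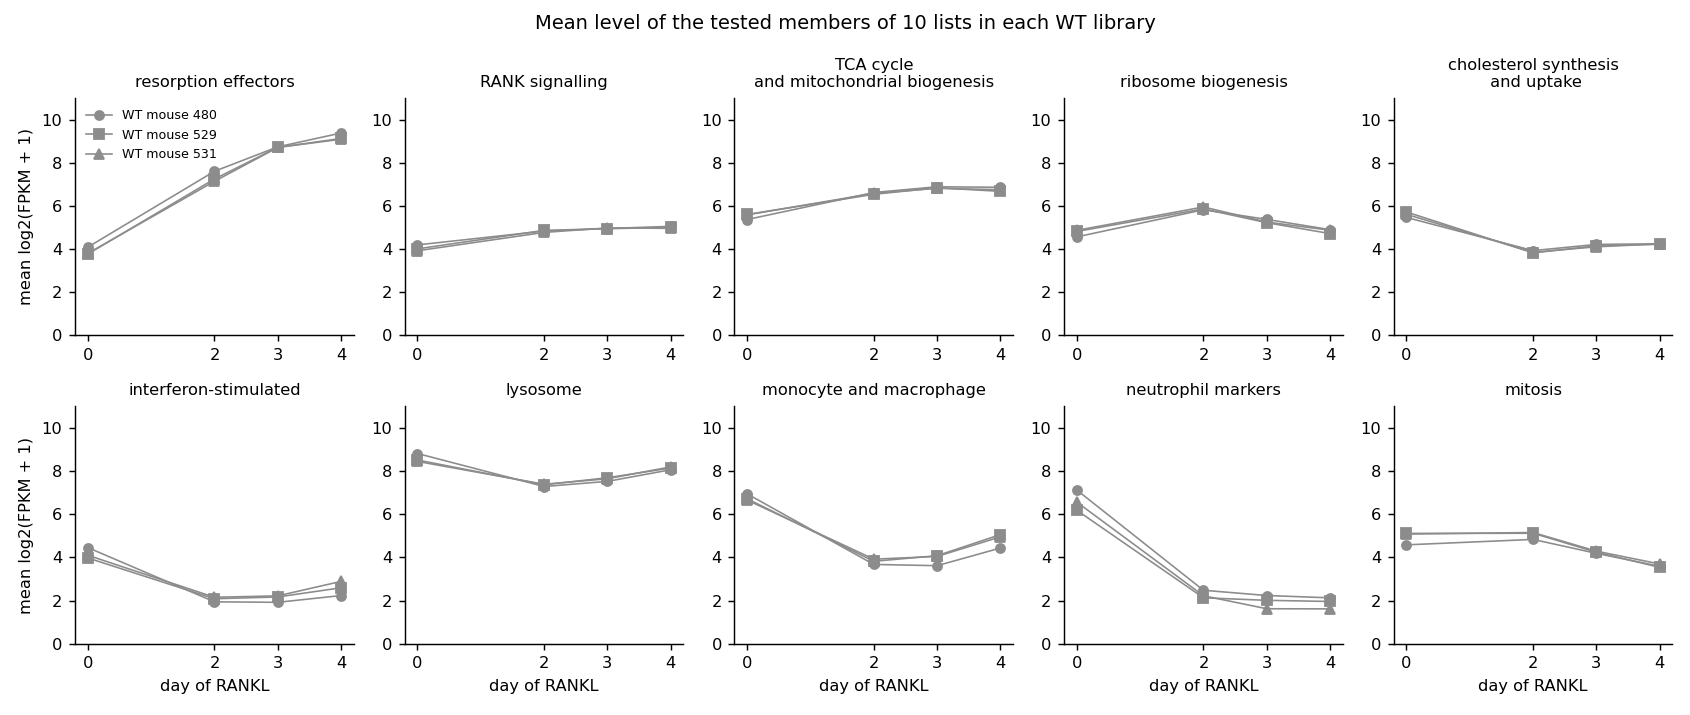
Mean log2(FPKM + 1) of the tested members of 10 lists in each WT library at days 0, 2, 3 and 4. Ribosome biogenesis was highest at day 2 in each mouse, resorption effectors rose on to day 4, and lysosome genes were lowest at day 2.

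Cell division genes did not move as a block. Of 26 mitosis genes, 8 rose, 5 fell and the median was 0.15, and of 29 replication genes 7 rose and 9 fell. Mki67, a mark of cycling cells, was at 37.00, 55.5 and 32.5 FPKM at WT day 2, against 15.8, 19.9 and 16.7 FPKM at WT day 0 (log2 change 1.18 (SE 0.13, adjusted p = 0.000331)). Pcna, the clamp of DNA polymerases, was at 129, 129 and 177 FPKM at WT day 2, against 319.7, 511 and 508 FPKM at WT day 0 (log2 change -1.60 (SE 0.15, adjusted p = 0.000187)). Of G1 regulators 9 of 15 fell: Btg2 and Cdkn2d, brakes on the cycle, changed by -3.21 (SE 0.22) and -1.86 (SE 0.11), and Cdk6 rose by 1.78. The mitosis list had 5 rises without mouse 529, and 3 replication genes fell without mouse 529 or mouse 531. In WT all 26 mitosis genes changed more positively than in KO, by a median of 0.36, and 0 of these differences was called. In the same limma test 9 of the 26, which are not independent of each other, had an unadjusted p under 0.05. So did 5 of the 29 replication genes and 438 of all 9820 genes.

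Some genes peaked at day 2. By the WT values, 7 genes rose at WT day 2 and stood at least 1 log2 unit above the means of WT days 3 and 4 with no overlap, and these values chose them. How many are chosen depends on the pseudocount, with 29 genes at 0.1 in place of 1, of which 28 were lower at KO day 4 than at KO day 2. Fosl1, an AP-1 subunit, was at 2.51, 4.02 and 3.01 FPKM at WT day 2, against 0.0698, 0.219 and 0.0327 FPKM at WT day 0, and averaged 0.541 FPKM at WT day 3 and 0.147 FPKM at WT day 4. Mybl2, a factor of the cell cycle, was at 11.5, 13.5 and 13.1 FPKM at WT day 2, against 2.47, 5.400 and 3.92 FPKM at WT day 0. The others were Acsbg1, Pdpn, Angptl2, Rnf183 and Rangrf. In KO mice, which the choice did not use, all 7 chosen at a pseudocount of 1 were lower at KO day 4 than at KO day 2, where 33.9% of genes tested were lower. At KO day 2, 6 of them were higher than at KO day 0, with Angptl2 not called.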

How the data were processed

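Bulk RNA of mouse marrow-derived cells was sequenced, per the labels. The authors deposited FPKM per gene and library in 1 table of 10721 genes, made with HISAT2 2.0.5, Cufflinks 2.2.1 and Cuffdiff on build mm10, per the submitters' processing notes. Not given in the sources used here are trimming, strandedness, annotation, depth and how genes were selected. Adjusted p-values therefore cover a preselected set. FPKM are not counts, so no count test was run.

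Genes with a mean of at least 1 FPKM in either WT group entered limma 3.58.1 (R 4.3.3) on the log2(FPKM + 1) scale, with a mean-variance trend, two-sided, Benjamini-Hochberg adjusted at 0.05 and the mouse as a block, which leaves 2 residual degrees of freedom for the WT comparison. The block comes from the animals: each mouse gave a library at each day, and deviations from the group means of the same mouse correlated at 0.122 (mouse 480), 0.216 (529) and 0.459 (531). The difference between WT and KO changes was tested in 1 fit of 12 libraries. Replicates are different mice.

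Exact zeros can be failed estimates, and 14 genes were listed at 0 in 1 library with another of the group at 5 FPKM or more. Low values step in multiples that differ by a factor of 0.933 to 1.16 between libraries of a group. Overlapping or near-identical genes, such as the Ms4a and Ifit families, can share reads, so their single values are uncertain. On simulated data with 200 changed genes among 9820, 134 were recovered with 13 false calls, at 11.9%, 91.0% and 98.5% for log2 changes of 0.5, 1 and 2. For the genotype difference, 110 of 200 were recovered among 9890 genes with 4 false calls, at 1.49%, 67.2% and 97% for the same changes. The simulation for the WT comparison changed far fewer genes than the 76.4% called in the data. Its rates of recovery and false calls therefore do not carry over to that comparison.

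The members and lists were chosen with earlier results of these data known. Genes were named as the 12 largest rises and 12 largest falls without overlap at a mean of at least 5 FPKM, the 4 members of each list with the smallest adjusted p, up to 8 genes that peak at day 2, and a fixed set. Other named genes were chosen after their values were seen. Some genes that this rule names are not reported here. Alternatives changed the pseudocount, the filter, the scaling, the block, the libraries in the fit and the mice kept. One more, without small RNA genes and genes listed at 0, was chosen after seeing the data.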

Additional observations from a re-analysis of the deposited data

How the results depend on the processing

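Each count was recomputed under alternatives that changed the pseudocount, the filter, the scaling, the block, the libraries in the fit or the mice kept. Of 431 such counts, 411 stayed within 1.5 times the reported value. Without the replicate block 3523 genes were higher and 3590 lower at WT day 2, and calls of the lists kept their counts within that margin except where given here. Leaving out 1 mouse gave 3042 to 3852 higher and 3212 to 3936 lower genes, and 97.1%, 83.2% and 83.1% of calls were kept without mouse 480, 529 and 531, with 0 of opposite sign. The counts that moved belong to small or weakly changed lists, to the genotype difference and to the genes that peak at day 2. Mitosis rises ran from 5 to 8 over the mice left out, and replication falls were 5 without the block and 3 to 12 over the mice left out. Glycolysis rises were 8 in the fit on all 24 libraries without a block. With a filter at 5 FPKM fewer members were tested, and the falls were 3 for B cell, 0 for T and NK cell, 3 for erythroid and megakaryocyte, 2 for mast cell, basophil and eosinophil and 1 for dendritic cell markers, with 0 stromal rises. Stromal rises were 2 without the block, in the fit on all 12 WT libraries and in that on all 24. The genotype difference called 4 genes without the block, and 0 to 4 over the mice left out. With a pseudocount of 0.1, 29 genes peaked at day 2 in WT and 28 of them were lower at KO day 4. The cause of these moves was not tested, apart from the fewer genes tested under the filter. Of 148 named genes, 144 kept direction and call in the alternatives run. Csf1r ran from -0.27 to 0.15 over the mice left out, reversed without mouse 480, Pdpn and Angptl2 lost their calls without mouse 529 or 531, and Kitl passed in 3 alternatives. Depth is unknown, so values near 0 FPKM carry an error that cannot be given.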

Other observations

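Families below were grouped by symbol after the values were seen, and they overlap in part with the lists above. Scavenging and sensing receptors mostly fell. All 4 IgG Fc receptor genes and all 8 membrane-spanning 4-domain (Ms4a) genes tested were lower at WT day 2 than at WT day 0, with medians of -3.68 and -3.05 on the log2 scale. Of 9 Toll-like receptor genes, which sense microbial products, 8 fell and 0 rose. Tlr1 and Tlr7 changed by -2.80 (SE 0.17) and -2.63 (SE 0.19). Of 17 C-type lectin genes 12 fell, led by Clec10a at -5.47 (SE 0.25), and 4 rose, led by Clec4a4 at 2.05 (SE 0.13). Of 7 Nod-like receptor genes 4 fell and 1 rose.

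Motor and guidance genes rose in part. Of 13 myosin genes 8 rose and 3 fell: Myo1d and Myo10 changed by 4.91 (SE 0.16) and 2.75 (SE 0.13), and Myo1f by -0.74 (SE 0.19). Of 14 semaphorin and plexin genes 7 rose and 3 fell. Sema7a was at 15.3, 13.97 and 12.4 FPKM at WT day 2, against 0.0965, 0.0961 and 0.0879 FPKM at WT day 0, and Plxna4 changed by 3.38 (SE 0.16). The costimulatory receptor gene Tnfrsf9 was at 20.5, 22.5 and 23.6 FPKM at WT day 2, against 0.05503, 0.117 and 0.118 FPKM at WT day 0, a log2 change of 4.40 (SE 0.11).

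Traffic and turnover genes split within families. Of 39 Rab GTPase genes 25 fell and 7 rose. Rab38 was at 25.9, 19.9 and 20.6 FPKM at WT day 2, against 1.08, 1.23 and 1.97 FPKM at WT day 0 (log2 change 3.26 (SE 0.17)), and Rab27a changed by -1.72 (SE 0.17). Among 35 proteasome genes 17 fell and 5 rose. The 3 with the largest falls were the immunoproteasome subunit genes Psmb8, Psmb9 and Psmb10, at -1.50, -1.65 and -1.78. Neutrophil and macrophage markers fell over the same step, and their part in these values was not tested.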
